A study of Mus musculus with 2 samples.

Results

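The genes described here are 34 genes of glycolysis, lactate transport and the response to low oxygen, out of 43346 gene rows measured in the newborn mouse neural tube. They were chosen by name, and each symbol was matched to its gene ID with the version number removed; all 34 matched 1 row. By role they are 17 enzymes of the 11 steps from glucose to lactate, 3 regulators of flux, 4 membrane transporters, 6 genes of oxygen sensing and 4 targets of the hypoxia response. Total RNA was sequenced from 2 single neural tubes of B6NCrl mice on postnatal day 0, 1 from pup 1 and 1 from pup 2, both of pregnancy 1, with sex not collected. The pups carried no named allele and received no named agent, so they form 1 group with n = 2, without a contrast between conditions.

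Glycolysis splits glucose into pyruvate in the cytosol and yields ATP without oxygen. Lactate dehydrogenase then interconverts pyruvate and lactate, and monocarboxylate transporters carry lactate across the cell membrane, which in nervous tissue allows exchange between glia, neurons and blood. When oxygen is low, prolyl hydroxylases of the Egln family stop marking the HIF alpha subunits for the VHL ubiquitin ligase, and the stabilised subunits pair with ARNT and switch on target genes, among them many glycolytic enzymes.

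Levels are given as TPM, an abundance scaled to a fixed total per library and already divided by transcript length, and errors are the SD over the 2 pups. Over the gene rows, expected counts added up to 26916916 for pup 1 and 40003518 for pup 2. Deposited interval bounds of TPM and any floor cover counting and assignment error, not differences between animals. The floor for a gene at 0, set at 3 counts, was 0.111 CPM in pup 1 and 0.0750 CPM in pup 2, where CPM is a count over the library's total. As a check of the tissue label, 5 of 5 Hox genes of cord position were detected, summed at 236 TPM in pup 1 and 198 TPM in pup 2. They differed in opposite directions: Hoxd10 had 105 TPM in pup 1 and 63.2 TPM in pup 2 and Hoxc10 77.4 and 41.4 TPM, whereas Hoxc8 had 22.8 and 52.0 TPM and Hoxc6 10.3 and 18.3 TPM. All 4 forebrain genes were below a TPM of 1, with Otx1 and Otx2 at 0 counts in both pups. Neuronal markers (6 of 6 detected) summed to 3741 TPM in pup 1 and 3544 TPM in pup 2, and astrocyte markers (6 of 6) to 904 and 919 TPM. Single markers in both lists differed in opposite directions. Among neuronal markers, 3 had TPM intervals apart and higher in pup 1, among them Tubb3 (1094 and 915 TPM), and 2 higher in pup 2. Among astrocyte markers, Slc6a11 (238 and 212 TPM) and Slc1a3 (180 and 156 TPM) were higher in pup 1 with intervals apart. Gfap (201 and 236 TPM) and Gja1 (153 and 190 TPM) were higher in pup 2, also with intervals apart. The sums of other lists differed more. Oligodendrocyte markers (4 of 5 detected in both) summed to 385 TPM in pup 1 and 685 TPM in pup 2. Meningeal and fibroblast markers (5 of 5) summed to 1345 and 2718 TPM, and erythroid markers (5 of 6) to 3738 and 2886 TPM. Microglial markers (5 of 5) summed to 194 TPM in pup 1 and 204 TPM in pup 2, and skeletal muscle markers (5 of 6) to 59.6 and 59.4 TPM. For comparison with these marker counts, 63.8% of nuclear protein-coding rows were detected in both pups. In whole tissue, fewer cells of a type and less RNA per cell cannot be told apart.

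All 34 genes reached a TPM of at least 1 in both pups, where 35.5% of all gene rows and 63.8% of nuclear protein-coding rows did. With protein-coding transcripts alone 33 did, without Hk2 (0.95 TPM in pup 1). With all transcripts, 29 reached a TPM of at least 5. The shares of all rows under these settings were not computed. The median level of the 34 genes was 71.8 TPM, against 17.7 TPM for the nuclear protein-coding genes detected in both pups. The excess lay with the 17 enzymes, whose median was 388 TPM, whereas the 17 regulators, transporters, sensors and targets had a median of 17.2 TPM. Of the 34 genes, 14 stood in the top 5% of nuclear protein-coding genes by mean TPM, and 13 of these were enzymes. These ranks use all transcripts of a gene. Bnip3l, the gene of the 14 that is not an enzyme, had a mean of 293 TPM, but 32.9 TPM on protein-coding transcripts. Pfkp had 381 TPM, but 108 TPM on such transcripts. The enzymes summed to 8272 TPM in pup 1 and 8165 TPM in pup 2 (8218 ± 75.1, n = 2), which was 1.02% of nuclear protein-coding TPM in each.

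**Figure D1:**
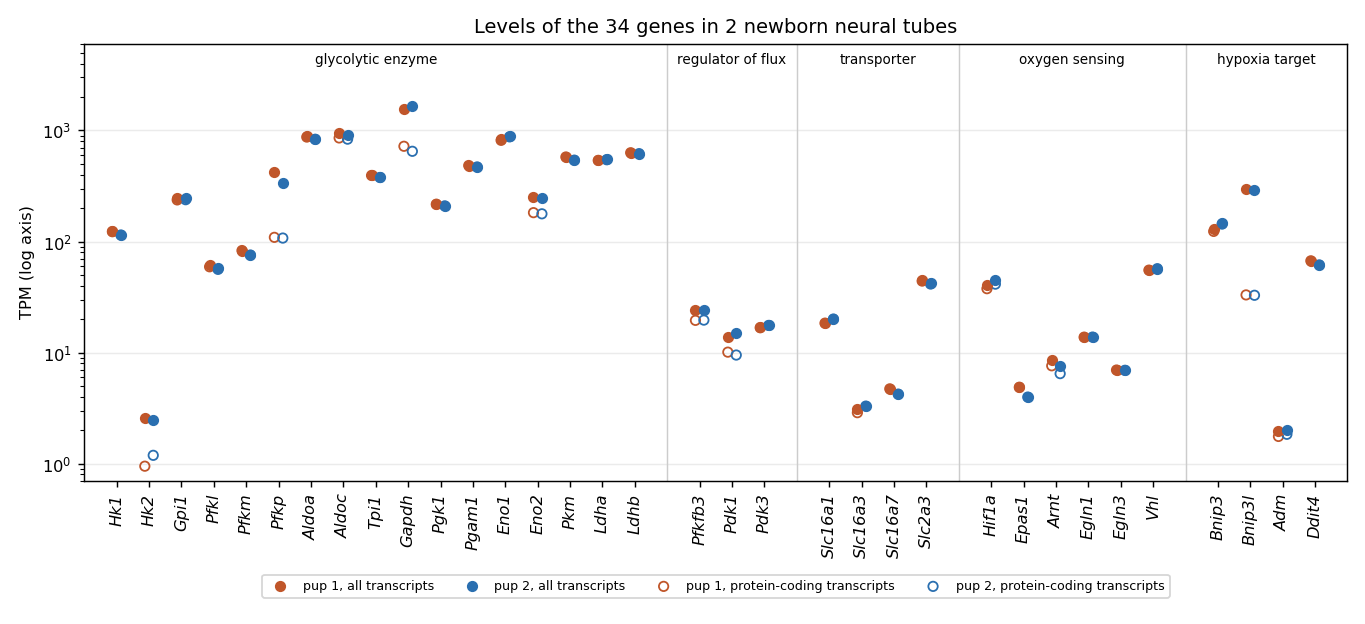
TPM of the 34 genes in pup 1 (orange) and pup 2 (blue) on a log axis, grouped by role. Filled points are all transcripts of a gene and open points the protein-coding transcripts alone; Gapdh, Pfkp, Bnip3l and Hk2 are the genes whose open points lie far below the filled ones.

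A gene's TPM in these tables adds up all its annotated transcripts, including short transcripts that encode no protein. For 25 of the 34 genes at least 90% of the TPM lay on protein-coding transcripts in both pups. In Gapdh, Pfkp, Bnip3l and Hk2 these transcripts held less than 50% in both pups. Protein-coding transcripts carried 46.0% of Gapdh TPM in pup 1 and 38.9% in pup 2, and the leading transcript was Gapdh-208, a processed transcript of 483 bases with 53.4% and 60.5%. For Pfkp they carried 25.6% in pup 1 and 32.0% in pup 2, and the leading transcript was Pfkp-210, a retained-intron transcript of 702 bases with 44.2% and 44.3%. For Bnip3l they carried 11.2% in each pup, and Bnip3l-204, a processed transcript of 354 bases, led with 50.0% in pup 1 and 45.9% in pup 2. The levels of these 4 genes therefore depend on which transcripts are counted, and both values are given for them.

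At the entry of the pathway, hexokinase traps glucose in the cell as glucose-6-phosphate. Hk1, the form bound to mitochondria that prevails in brain, stood at 124 TPM in pup 1 and 115 TPM in pup 2. Hk2, a form known for its induction by insulin and by hypoxia, stood at 2.59 and 2.45 TPM. Hk1 thus made up 97.9% ± 0.0251 of the pair and was 47.3-fold ± 0.587 above Hk2. Hk2 rested on 103 and 188 counts, and its protein-coding transcripts had 0.95 TPM in pup 1 and 1.19 TPM in pup 2. With protein-coding transcripts Hk1 was 113-fold ± 23.3 above Hk2, and by expected counts 73.0-fold ± 12.1. Gpi1, which turns glucose-6-phosphate into fructose-6-phosphate, followed at 246 TPM in pup 1 and 245 TPM in pup 2. Its intervals overlapped between the pups.

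Phosphofructokinase is the committed step of glycolysis, and its 3 genes encode the liver (Pfkl), muscle (Pfkm) and platelet (Pfkp) subunits of a tetramer. Pfkp (chr13:6579768-6648777, minus strand, GRCm38) had 426 TPM in pup 1 and 336 TPM in pup 2. Pfkm had 83.0 and 75.6 TPM. Pfkl had 61.7 and 57.5 TPM. Pfkp held 73.1% ± 2.16 of the summed TPM, Pfkm 15.3% ± 1.12 and Pfkl 11.5% ± 1.04. With protein-coding transcripts alone, Pfkp held 44.2% ± 1.08, Pfkm 32.3% ± 1.01 and Pfkl 23.5% ± 0.0693, in the same order. Pfkp was then 1.37-fold ± 0.0759 above Pfkm, against 4.79-fold ± 0.492 with all transcripts. The counts of Pfkp and Pfkm are also uncertain because Pitrm1 overlaps Pfkp and Senp1 overlaps Pfkm on the opposite strand, and the strand setting of the quantification is not given in the sources used here. The same holds for Hk1, Gpi1, Aldoa, Tpi1, Gapdh and Hif1a, whose exons overlap genes on the other strand. Pfkfb3, which makes the allosteric activator of phosphofructokinase, stood at 24.4 TPM in pup 1 and 24.0 TPM in pup 2.

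In the middle of the pathway the 6-carbon sugar is cleaved and oxidised. Aldoa, the ubiquitous aldolase, had 889 TPM in pup 1 and 845 TPM in pup 2. Aldoc, the brain aldolase, had 944 and 915 TPM. Aldoa's share was 48.2% ± 0.346, and 50.2% ± 0.379 with protein-coding transcripts, so the pair was close to even by either TPM measure. By expected counts Aldoa's share was 44.3% ± 0.515, and Aldoc was 1.26-fold ± 0.0262 above it. Tpi1, which interconverts the cleavage products, had 397 TPM in pup 1 and 378 TPM in pup 2. Gapdh (chr6:125161715-125166467, minus strand), which makes the NADH of glycolysis, had 1567 and 1669 TPM and was the highest of the 34 genes, above 99.9% of nuclear protein-coding genes. Its protein-coding transcripts had 720 TPM in pup 1 and 649 TPM in pup 2, below Aldoa, Aldoc and Eno1 in both pups, and the pup with the higher value changed. Near-identical copies of Gapdh on 117 other rows held a further 9.17% and 8.69% of its count.

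Pgk1, which makes the first ATP of the payoff phase, had 217 TPM in pup 1 and 210 TPM in pup 2. Its near-identical copy Pgk1-rs7 held a further 15.7% and 15.9% of its count, so the split between them is uncertain. Pgam1, the brain-type phosphoglycerate mutase, had 483 and 469 TPM, and its copies, mainly Pgam1-ps2, held a further 3.83% and 4.29% of its count. Eno1, the ubiquitous enolase, had 835 TPM in pup 1 and 896 TPM in pup 2, and Eno2, the neuron-specific enolase, had 250 and 247 TPM. The Eno1 copy Gm4735 held a further 2.18% and 1.54% of the Eno1 count. Eno1 held 77.7% ± 1.00 of the enolase pair, a 3.48-fold ± 0.201 excess over Eno2, and 82.4% ± 0.985 with protein-coding transcripts. The ubiquitous form thus led enolase. In aldolase the brain form was on a par with the ubiquitous one in TPM and above it in expected counts.

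Summed by step, transcript levels were uneven along the pathway. Aldolase was highest at 1797 ± 51.7 TPM, followed by GAPDH at 1618 ± 72.3, lactate dehydrogenase at 1168 ± 2.77 and enolase at 1114 ± 40.9 TPM. Pyruvate kinase (558 ± 26.0), phosphofructokinase (520 ± 72.1) and phosphoglycerate mutase (476 ± 10.1) came next, and the values of the pups overlapped between phosphofructokinase and each of the other two. No other neighbours in this order overlapped. Triose-phosphate isomerase (388 ± 13.3), Gpi1 (245 ± 1.03), Pgk1 (213 ± 5.13) and hexokinase (122 ± 6.26) were lowest. Aldolase was thus 14.5-fold above hexokinase in pup 1 and 15.0-fold in pup 2. With protein-coding transcripts alone, GAPDH stood at 685 ± 50.4 TPM and rank 4, and phosphofructokinase at 245 ± 8.53 TPM and rank 8; aldolase stayed first and hexokinase last.

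**Figure D2:**
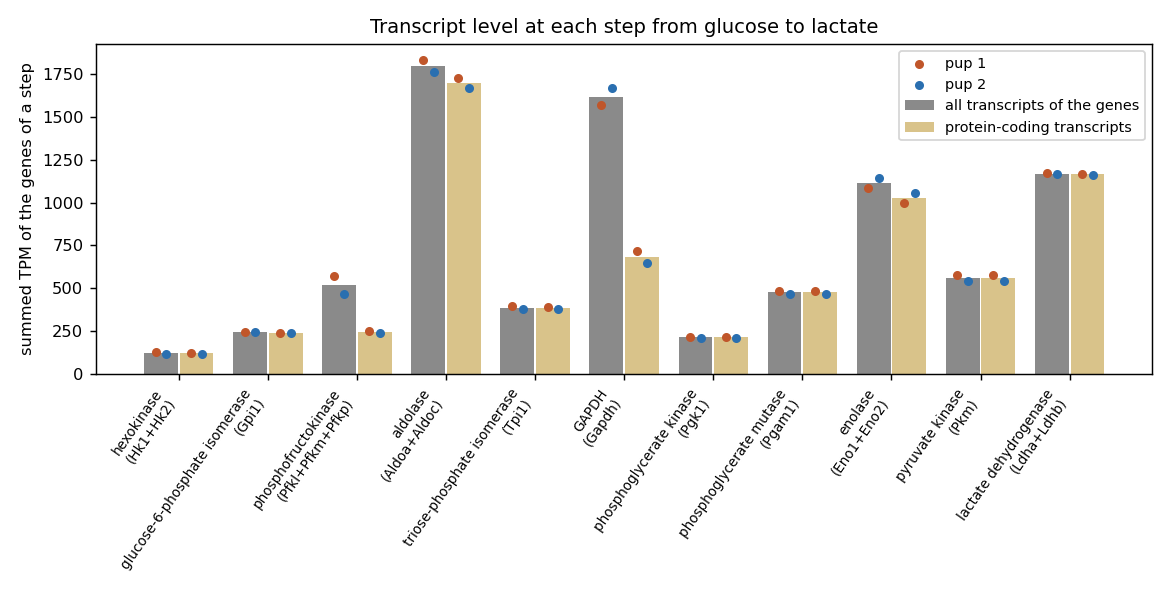
Summed TPM of the genes of each of the 11 steps from glucose to lactate, in pathway order. Bars are means of the 2 pups, points are the pups; the bars for all transcripts (grey) and protein-coding transcripts (tan) part at phosphofructokinase (520 and 245 TPM) and GAPDH (1618 and 685 TPM).

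Pyruvate kinase makes the last ATP of the pathway, and its gene Pkm (chr9:59656368-59679375, plus strand) is spliced with 1 of 2 mutually exclusive exons. The exon 9 form, PKM1, is the constitutively active enzyme of mature muscle and brain, and the exon 10 form, PKM2, is the allosterically regulated enzyme of proliferating cells. Both exons have 167 bases, and they differ at 64 positions, so reads within them can be told apart. They are shown because the split between the forms rests on them; capitals mark the positions at which they differ, both read on the plus strand of GRCm38.
PKM1 exon 9, chr9:59675029-59675195: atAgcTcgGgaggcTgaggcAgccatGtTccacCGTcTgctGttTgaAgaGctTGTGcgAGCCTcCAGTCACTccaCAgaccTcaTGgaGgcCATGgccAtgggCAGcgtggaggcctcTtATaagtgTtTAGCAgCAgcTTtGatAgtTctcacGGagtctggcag
PKM2 exon 10, chr9:59675568-59675734: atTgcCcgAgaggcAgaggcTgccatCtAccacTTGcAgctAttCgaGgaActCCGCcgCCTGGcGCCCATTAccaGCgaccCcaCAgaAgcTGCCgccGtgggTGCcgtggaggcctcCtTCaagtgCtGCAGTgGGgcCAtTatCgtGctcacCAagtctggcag
Of the 167 positions, 103 are the same in both exons (61.7%).

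Pkm had 577 TPM in pup 1 and 540 TPM in pup 2. The deposited transcript tables held 2 Pkm transcripts, Pkm-202 with exon 9 and Pkm-201 with exon 10. The exons were read from the GENCODE M21 annotation, in which Pkm-202 has 2041 bases, against 2432 in the deposited tables, so the exon content of the quantified PKM1 transcript rests on its ID and could not be checked against GENCODE M4, with which the tables were made. The PKM1 transcript had 462 TPM in pup 1 and 416 TPM in pup 2. The PKM2 transcript had 115 and 124 TPM. PKM1 therefore led in both neural tubes, 4.03-fold in pup 1 and 3.36-fold in pup 2. As a share of Pkm, PKM1 was 80.1% in pup 1 and 77.1% in pup 2, and PKM2 was 19.9% and 22.9% (21.4% ± 2.15, n = 2). The PKM1 intervals, 436 to 457 TPM in pup 1 and 398 to 416 TPM in pup 2, did not overlap, while those of PKM2, 103 to 120 and 114 to 129 TPM, did. The TPM of PKM1 lay above its own interval in both pups, and such intervals are built around the posterior mean and not around the TPM itself.

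**Figure D3:**
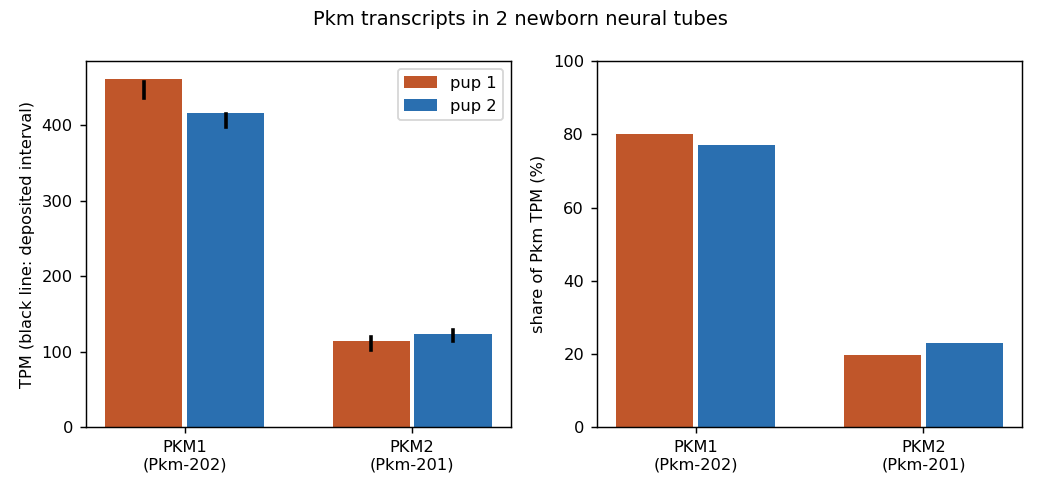
Left, TPM of the PKM1 (Pkm-202) and PKM2 (Pkm-201) transcripts in pup 1 (orange) and pup 2 (blue), with the deposited interval as a black line. Right, each transcript's share of Pkm TPM; PKM1 holds 80.1% in pup 1 and 77.1% in pup 2.

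At the end of the pathway, Ldha encodes the subunit that favours the reduction of pyruvate to lactate, and Ldhb the subunit of heart and brain that favours the reverse. Ldhb had 630 TPM in pup 1 and 618 TPM in pup 2, and Ldha had 540 and 548 TPM. Ldhb was 1.15-fold ± 0.0269 above Ldha, and Ldha's share was 46.6% ± 0.583. Both genes lay within the top 1% of nuclear protein-coding genes. The order held in both pups in TPM but turned in expected counts, which are not divided by length and of which Ldha took 51.7% ± 0.601.

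**Figure D4:**
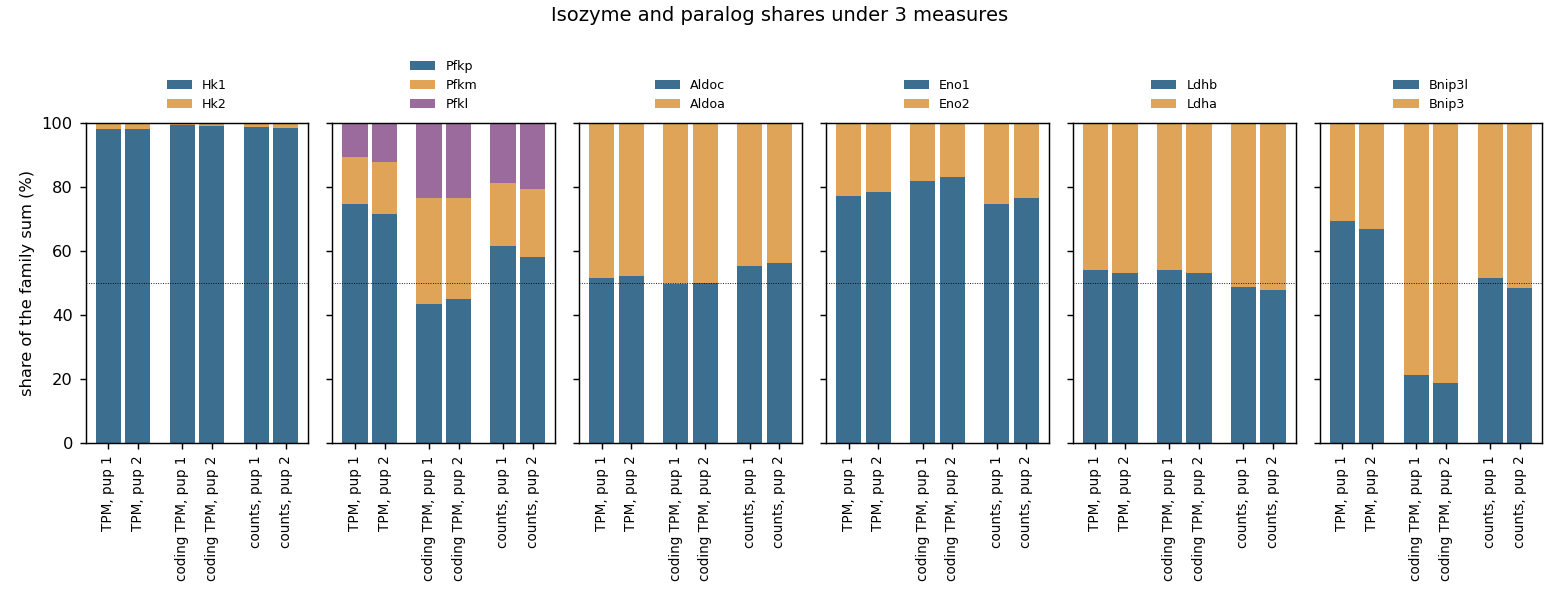
Shares of each gene in 5 isozyme families and the Bnip3 pair, in pup 1 and pup 2, by TPM, by TPM of protein-coding transcripts and by expected counts. The 2 pups resemble each other in each measure, while the measure itself moves the Pfkp share between 73.1% and 44.2% and turns the order of Bnip3 and Bnip3l.

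The transporters lay below every enzyme gene other than Hk2. Slc16a1 (MCT1), the monocarboxylate transporter of glia and endothelium, had 18.4 TPM in pup 1 and 20.1 TPM in pup 2. Slc16a7 (MCT2), the neuronal high-affinity form, had 4.72 and 4.24 TPM, and Slc16a3 (MCT4), the exporter of glycolytic cells, had 3.08 and 3.30 TPM. Slc16a1 held 71.5% ± 1.72 of the 3, and the intervals of Slc16a7 and Slc16a3 overlapped in each pup. Slc16a3 rested on 114 and 198 counts and was the only gene of the 34 whose leading transcript differed between the pups. Slc2a3 (GLUT3), the neuronal glucose transporter, had 45.0 TPM in pup 1 and 42.0 TPM in pup 2. Slc2a1 (GLUT1), the transporter of the blood-brain barrier and of glia, which is not among the 34, had 48.7 and 41.5 TPM. The pair was thus nearly even in TPM, with the order turning between the pups. With protein-coding transcripts the ratio of Slc2a1 to Slc2a3 was 1.10 in pup 1 and 1.00 in pup 2. By expected counts it was 0.741 and 0.686, with Slc2a3 higher in both pups. Of 10 further glucose and lactate transport genes, 8 were detected in both pups, where 63.8% of nuclear protein-coding rows were. Bsg, the chaperone of monocarboxylate transporters, was highest at 1022 TPM in pup 1 and 992 TPM in pup 2. Slc2a2, the liver glucose transporter, was lowest at 0.05 and 0 TPM.

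Pyruvate that is not reduced enters mitochondria, and pyruvate dehydrogenase kinases close that route by phosphorylating the pyruvate dehydrogenase complex. Pdk3 had 16.9 TPM in pup 1 and 17.6 TPM in pup 2, and Pdk1, a hypoxia target, had 13.8 and 15.0 TPM. Pdk2, which is not among the 34, was 1.97-fold ± 0.0698 above Pdk3, with 34.1 and 33.8 TPM. All 11 genes of pyruvate entry in a further list were detected in both pups, where 63.8% of nuclear protein-coding rows were. The carrier subunit Mpc1 was highest at 594 TPM in pup 1 and 616 TPM in pup 2, and Pdk4, the kinase of fasting, lowest at 1.22 and 1.10 TPM.

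Other branches of carbohydrate metabolism were described from 3 further lists, beside the 63.8% of nuclear protein-coding rows detected in both pups. Of 16 other glycolytic isozymes and regulators 9 reached a TPM of 1 in both pups, led by Bpgm, the bisphosphoglycerate mutase of red cells, at 60.4 TPM in pup 1 and 54.2 TPM in pup 2. Hk3, a hexokinase of blood cells, had 1.03 TPM in pup 1 and 0.68 TPM in pup 2, so that it passed in pup 1 alone, and Pgk2, the testis form, was lowest with 0 and 1 counts. Of 7 gluconeogenesis genes 3 were detected in both pups. The highest, G6pc3, the ubiquitous glucose-6-phosphatase, had 42.9 TPM in each, Fbp1 passed only in pup 1 (1.77 and 0.52 TPM), and the liver gene G6pc was lowest with 1 count in each. All 14 genes of the pentose phosphate pathway and glycogen were detected, from Pgls at 216 TPM in pup 1 and 217 TPM in pup 2 to Rpia at 1.84 and 1.78 TPM.

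The oxygen-sensing genes were expressed at moderate levels. Hif1a, the widely expressed HIF alpha subunit, had 40.8 TPM in pup 1 and 44.7 TPM in pup 2. Epas1, which encodes HIF-2 alpha and is known from endothelium, had 4.88 and 3.98 TPM. Hif1a was 8.36-fold above Epas1 in pup 1 and 11.2-fold in pup 2, and Epas1's share of the pair was 9.43% ± 1.77. These 2 genes differed between the pups in opposite directions, each with intervals that did not overlap. Endothelial markers (5 of 5 detected) summed to 195 TPM in pup 1 and 161 TPM in pup 2, most of it from Cldn5 (130 and 103 TPM). Of the 5, 3 had intervals apart, all higher in pup 1 as Epas1 was. Pecam1 (9.81 and 9.02 TPM) had overlapping intervals, and Cdh5 had 8.37 TPM in each pup. The part of endothelium in the difference of Epas1 was not tested.

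Arnt, the partner of the alpha subunits, had 8.65 TPM in pup 1 and 7.65 TPM in pup 2, and its neural paralog Arnt2, not among the 34, had 33.9 and 26.8 TPM, a 3.71-fold ± 0.295 excess. Of the prolyl hydroxylases, Egln1, the main oxygen sensor, had 13.8 TPM in each pup. Egln3, itself a hypoxia target, had 6.97 and 6.93 TPM, so that Egln1 was 1.98-fold ± 0.0101 above it. Egln2, not among the 34, had 72.5 TPM in pup 1 and 67.7 TPM in pup 2 and exceeded Egln1 5.08-fold ± 0.253. Vhl, the substrate receptor of the ubiquitin ligase, had 55.3 TPM in pup 1 and 57.0 TPM in pup 2. All 9 other genes of the HIF pathway were detected in both pups, where 63.8% of nuclear protein-coding rows were. They ran from Elob, a ligase subunit, at 1084 TPM in pup 1 and 1106 TPM in pup 2 to Hif3a at 3.60 and 2.37 TPM.

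Among the 4 hypoxia targets, the mitophagy receptors Bnip3l and Bnip3 were highest with all transcripts, whereas with protein-coding transcripts Bnip3l lay below Ddit4; Adm was lowest by both. Bnip3l had 295 TPM in pup 1 and 292 TPM in pup 2, and Bnip3 had 130 and 146 TPM. Bnip3l's protein-coding transcripts had 33.1 TPM in pup 1 and 32.8 TPM in pup 2. With such transcripts alone Bnip3 led instead, at 80.1% ± 1.80 of the pair against 32.0% ± 1.91 with all transcripts. By expected counts the pair was even, with 50.1% ± 2.37 for Bnip3. Ddit4, an inhibitor of mTORC1, had 67.0 TPM in pup 1 and 61.6 TPM in pup 2. Adm, which encodes the vasodilator adrenomedullin, had 1.99 and 2.01 TPM, on 40 and 64 counts.

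Of 19 further hypoxia targets 15 were detected in both pups, where 63.8% of nuclear protein-coding rows were. The median of all 19 was 11.2 TPM, against 17.7 TPM for the nuclear protein-coding genes detected in both pups. Higd1a, a mitochondrial protein, was highest at 82.6 TPM in pup 1 and 80.0 TPM in pup 2. Car12, a carbonic anhydrase, passed only in pup 1 (1.16 and 0.81 TPM), and Epo, which encodes erythropoietin, had 0 counts in both pups, which allows up to 3 counts in each. Vegfa, named here after its values were seen, had 2.28 TPM in pup 1 and 2.85 TPM in pup 2. The levels of these targets in 1 group at 1 age hold no comparison between oxygen states.

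The 2 pups were compared gene by gene over the 13544 genes whose mean count was 100 or more, as log2 ratios of pup 1 over pup 2 after TMM scaling, which sets ratios relative to the bulk of genes. Of the 34 genes 33 passed this count, and Adm did not. No gene of the 33 differed by 1.3-fold or more (5.91% of all genes did), and none by 2-fold (0.473% did). The log2 ratios ran between -0.31 for Hk2 and 0.24 for Pfkp. Their median size regardless of sign was 0.07, against 0.11 over all genes, and their signed median was -0.04, against -0.0011 over all genes. By log2 TPM ratios the signed median was 0.03, against 0.06 over all genes. There is 1 library on each side, so a difference between animals cannot be told apart from one between libraries, and no test was made.

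By the other measure, 11 of the 33 genes had TPM intervals that did not overlap between the pups, against 23.6% of all genes. Among the 26 with a mean count of at least 1000 it was 10, against 33.6% of all such genes. Hk1, Pfkm, Pfkp, Aldoa, Pkm and Epas1 were higher in pup 1 (6 genes; 15.9% of all genes were), and Gapdh, Eno1, Slc16a1, Hif1a and Bnip3 were higher in pup 2 (5 genes; 7.72% of all genes were). For Gapdh the direction turned with protein-coding transcripts, at 720 TPM in pup 1 and 649 TPM in pup 2. The TPM itself lay above its own interval in 12 genes of pup 1 and 10 of pup 2. The TPM of the median gene was itself 1.04-fold higher in pup 1, and the ratios of Hk1 (1.08), Pkm (1.07) and Aldoa (1.05) lay close to that shift. All 11 kept the direction of their total TPM in the scaled counts. Of the 33 genes, 11 others changed sign between the TPM ratio and the scaled log2 ratio, all with overlapping intervals. Hk2 was one, with a TPM ratio of 1.06 and a scaled log2 ratio of -0.31 on 103 and 188 counts, and in the remaining 10 the scaled log2 ratio was at most 0.08 in size.

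Of the genes with intervals apart, Pfkp had the highest ratio, 1.27 in TPM. Its retained-intron transcripts accounted for 316 TPM in pup 1 and 228 TPM in pup 2, while its protein-coding transcripts had 109 and 107 TPM. The retained-intron part thus differed 1.39-fold and the protein-coding part 1.01-fold. Most of the TPM difference of Pfkp thus lay on its retained-intron transcripts, and why these differed was not tested. Over all genes, retained-intron transcripts held 4.35% of TPM in pup 1 and 4.09% in pup 2. Bnip3 differed most in the other direction among genes with intervals apart, with a log2 ratio of -0.27.

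**Figure D5:**
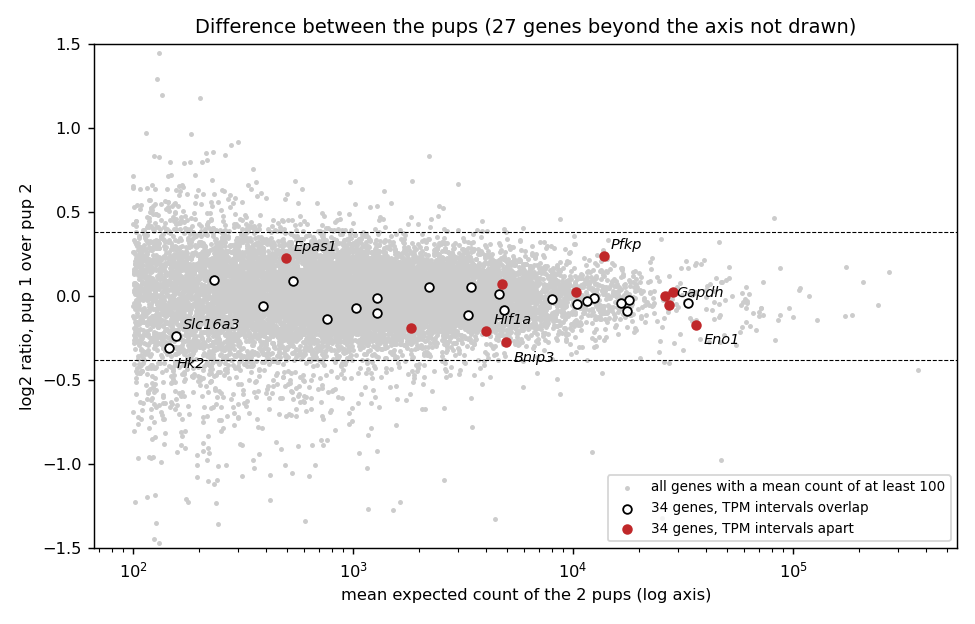
Log2 ratio of pup 1 over pup 2 after TMM scaling against the mean expected count (log axis), for all genes whose mean count was 100 or more (grey) and the 33 genes of this set that passed it. Red points have TPM intervals that do not overlap between the pups, and dashed lines mark 1.3-fold; all 33 lie between them.

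In the further lists, 1.3-fold was passed by 1 of 9 other HIF pathway genes with enough counts, 1 of 14 hypoxia targets and 1 of 8 transport genes. No such gene passed it in the remaining lists, and 5.91% of all genes did. Hif3a was 1.48-fold higher in pup 1 by scaled counts, but its TPM intervals overlapped between the pups. Hmox1, the heme oxygenase, was 3.11-fold higher in pup 2, with 13.5 TPM in pup 1 and 40.3 TPM in pup 2. Emb, a chaperone of monocarboxylate transporters, was 1.42-fold higher in pup 2, with 10.4 and 14.1 TPM. The TPM intervals of Hmox1 and Emb did not overlap. The other genes of these lists that passed the count minimum stayed within 1.3-fold. Meningeal, oligodendrocyte and erythroid marker sums, single neuronal and astrocyte markers and the single Hox genes of cord position differed between the pups as given above. Their part in these differences, and in those of the 34 genes, was not tested.

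The start regions of the genes were searched for the core of the HIF binding motif, ACGTG or GCGTG on either strand, in RefSeq promoter windows of 300 bases (250 before to 50 after each start, GRCm38.p6). Windows were given for 30 of the 34 genes, 43 in all, without Slc16a7, Slc2a3, Epas1 and Bnip3l. A match was found in 34 of the 43 windows (79.1%), belonging to 26 genes, against 43.8% of 32851 windows of all genes and 49.3% of 21263 windows of protein-coding genes. The windows of these genes were also richer in CpG, with a median of 21 CpG dinucleotides against 7 and 13, and both motif versions contain a CpG. A match describes these letters and is not evidence of binding.

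Ldha had the window with the most matches, 7 on its upstream start, and Bnip3 the window with the most among the hypoxia targets, 5. Both are shown 5′ to 3′ on the strand of the gene, with every motif match on either strand in capitals; neighbouring or overlapping matches run together.
Ldha promoter, chr7:46845554-46845853, plus strand: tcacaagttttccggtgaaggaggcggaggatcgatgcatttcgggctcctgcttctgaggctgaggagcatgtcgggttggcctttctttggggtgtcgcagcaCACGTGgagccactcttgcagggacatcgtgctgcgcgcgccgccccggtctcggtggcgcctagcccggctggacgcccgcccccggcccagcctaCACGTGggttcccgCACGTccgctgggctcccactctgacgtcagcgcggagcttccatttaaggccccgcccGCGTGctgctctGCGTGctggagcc
Bnip3 promoter, chr7:138909457-138909756, minus strand: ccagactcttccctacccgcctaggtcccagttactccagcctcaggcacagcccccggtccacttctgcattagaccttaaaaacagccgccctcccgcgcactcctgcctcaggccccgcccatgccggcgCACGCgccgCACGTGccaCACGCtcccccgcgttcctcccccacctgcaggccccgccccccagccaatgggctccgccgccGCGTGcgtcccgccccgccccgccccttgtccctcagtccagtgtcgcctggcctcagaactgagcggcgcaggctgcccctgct
The palindrome CACGTG, which counts as a match on each strand, occurs in both windows. The 4 genes whose windows held no match, Gpi1, Tpi1, Eno2 and Vhl, stood at 245, 388, 249 and 56.1 TPM.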

How the data were processed

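Gene and transcript tables of 2 total RNA-seq libraries were analysed; per the labels, RNA above 200 bases was kept and 10 ng entered each library. Per the file headers, the tables hold expected counts (estimated, not always whole numbers), TPM, posterior mean TPM and the lower and upper bounds of TPM, a signal interval per row; the deposited percent column says how much of a gene's TPM a transcript holds. The build was mm10 with GENCODE M4, per the deposited notes. No aligner, quantification program or strand setting is given in the sources used here.

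Symbols, transcript names and types, and exons came from GENCODE M21 (GRCm38, the same build). Of 213 transcripts of the 34 genes, 1, with 0 TPM, had no M21 entry, and some M21 transcript versions are later than the quantified ones. Near-identical copies were rows whose transcripts aligned at 95% identity or more over at least 200 bases (BLAST+ 2.17.0). By this rule they include Pitrm1 for Pfkp, Gm26762 for Gpi1 and Gm26513 for Pfkm, which overlap exons of these genes and are not copies at another locus. Expected counts were rounded, and TMM factors (edgeR 4.0.16, R 4.3.3) were computed over the 18105 genes whose mean count was 10 or more; log2 CPM ratios used a prior count of 2, and DESeq2 1.42.0 size factors were an alternative. Detection meant a TPM of at least 1. No p-value was computed, since with 2 pups a sign test cannot go below 0.5; nothing says whether the libraries also differ technically. The ratio step was tested on simulated data. The labels give pups 1 and 2 of pregnancy 1. All 34 genes are named; of 7 further lists the highest, the lowest and any gene detected in 1 pup are named, except for 1 gene that is not reported here, with a few more genes as comparators, chosen after their values were seen. The 34 genes, the 7 lists and the 10 marker lists were chosen with earlier results of these data known. Python 3.11.15, numpy 2.4.6, pandas 2.3.3 and matplotlib 3.10.9 were used.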

Additional observations from a re-analysis of the deposited data

How the results depend on the processing

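The TPM of protein-coding transcripts was added as an alternative after seeing the data. Of 91 values under alternatives, 68 stayed within the spread between the pups or, for counts, within 1.5 times, and 23 moved. Some of the 68 could not move. Leaving out a pup returns the value of the other, which always lies within the spread. Both Pkm transcripts are protein-coding and have the same quantified length, so neither protein-coding transcripts alone nor expected counts could move the PKM2 share. Among the 68 is the signed median log2 ratio by TPM, 0.03 against -0.04, although it has no spread between the pups. The summed TPM of the enzymes was 8009 with posterior means, 10244 rescaled over nuclear protein-coding genes and 6807 with protein-coding transcripts. By expected counts the shares were 98.6% for Hk1, 19.7% for Pfkl, 20.4% for Pfkm, 59.8% for Pfkp, 44.3% for Aldoa, 75.5% for Eno1, 51.7% for Ldha, 82.4% for Slc16a1, 11.3% for Epas1 and 50.1% for Bnip3. With protein-coding transcripts they were 99.1% for Hk1, 23.5% for Pfkl, 32.3% for Pfkm, 44.2% for Pfkp, 50.2% for Aldoa, 82.4% for Eno1 and 80.1% for Bnip3. Posterior means gave 97.8% for Hk1 and 69.1% for Slc16a1. None of the 11 genes with intervals apart also differed 1.3-fold in TPM (0). Other size factors, library totals, another prior count or no filter on counts moved no value. Near-identical copies were added for the shares of genes alone and moved none of them. The sets of Hk1, Aldoa, Slc16a1 and Epas1 had no such copies, so their shares could not move. Copies were not added to the summed enzyme TPM, where those of Gapdh alone held 121 TPM in pup 1 and 114 TPM in pup 2. Leaving out either pup left shares of 97.9% to 97.9% (Hk1), 10.8% to 12.3% (Pfkl), 14.5% to 16.1% (Pfkm), 71.6% to 74.7% (Pfkp), 48.0% to 48.5% (Aldoa), 77.0% to 78.4% (Eno1), 46.1% to 47.0% (Ldha), 70.3% to 72.7% (Slc16a1), 8.17% to 10.7% (Epas1), 30.6% to 33.3% (Bnip3) and 19.9% to 22.9% (PKM2), a sum of 8165 to 8272 TPM and 34 genes detected. Counts omit the division by length and protein-coding TPM omits other transcripts; beyond this, the cause was not tested. No paired analysis was possible because the series holds 1 group. Adm, Hk2 and Slc16a3 rest on under 200 counts in each pup.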
